A study of Mus musculus with 7 samples.

Results

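The genes that launch and mark endothelium and blood were examined in ATAC-seq, an assay in which a transposase cuts and tags accessible DNA, of cardiac progenitor cells from mouse embryos. The 9 genes were *Kdr*, *Tal1*, *Etv2*, *Erg*, *Fli1*, *Runx1*, *Gata2*, *Cdh5* and *Tek*, chosen by name among 21000 protein-coding genes, and every deposited peak from 50 kb upstream to 50 kb downstream of each gene body was taken. Between 233 and 340 deposited peaks per library fell in these 9 loci, of 187914 to 291287 peaks per library in all. Peaks with q at most 0.01 in any library, merged where they shared at least 1 bp, gave 246 regions in the 9 loci among 210347 regions in the genome.

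All cells came from the second heart field region of E9.5 embryos and were sorted by flow cytometry from pools of embryos. In the *Hoxb1*-GFP line, where the reporter marks the posterior second heart field, 2 libraries held GFP+ cells (replicates 3 and 4) and 2 held GFP- cells (replicates 1 and 2). In the *Mef2c-Cre;Rosa tdT* line, where a Cre recombinase driven by an anterior heart field enhancer of *Mef2c* leaves a lasting Tomato label in those cells and their descendants, 2 libraries held Tomato+ cells (replicates 6 and 8) and 1 held Tomato- cells (replicate 7). The 4 positive libraries were compared with the 3 sort-negative libraries, which hold the mixed remainder of the dissected region and were not sorted for endothelium or blood. The number of tags per library was between 52340120 and 93074895, and the deepest library was Tomato- replicate 7.

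Endothelial and blood cells arise from mesoderm in which *Etv2*, an ETS factor, is switched on briefly together with *Kdr*, the receptor for vascular endothelial growth factor A. The ETS factors *Erg* and *Fli1* then keep endothelial genes active, *Tal1* and *Gata2* form complexes that start the blood programme, and *Runx1* is needed for endothelial cells to turn into blood stem cells. *Cdh5* encodes VE-cadherin, the adhesion molecule of endothelial junctions, and *Tek* encodes TIE2, the receptor for angiopoietins. Part of the heart's endocardium descends from second heart field cells, so the lineage label of the *Mef2c-Cre* line can include endothelial cells.

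The libraries showed open chromatin near most of these genes but at few of their promoters. In limma, none of the 28 regions of the 9 loci that could be fitted was called between positive and sort-negative libraries. The other regions lacked a peak in some library and were left out of that fit. The sites that carried the clearest values are printed first, as 201 bases around the summit of the strongest library, plus strand of GRCm38, read from the RefSeq assembly GRCm38.p6. Capitals mark any of 5 strings searched on both strands, the ETS string CNGGAAG, the FOX:ETS string AACNGGAA, the GATA string AGATAA, the TAL1 E-box CATCTG and the RUNX string TGTGGT. The *Kdr* and proximal *Runx1* promoters are shown because they alone reached q at most 0.01 in every library, the *Cdh5* sites because their values in GFP+ libraries were low, and the *Tek* intron because its values were higher in all positive libraries.
Kdr promoter, chr5:75978278-75978478: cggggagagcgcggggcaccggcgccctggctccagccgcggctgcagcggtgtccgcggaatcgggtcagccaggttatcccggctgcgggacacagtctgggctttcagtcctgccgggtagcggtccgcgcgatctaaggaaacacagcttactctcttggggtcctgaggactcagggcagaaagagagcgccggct
Runx1 proximal promoter, chr16:92697333-92697533: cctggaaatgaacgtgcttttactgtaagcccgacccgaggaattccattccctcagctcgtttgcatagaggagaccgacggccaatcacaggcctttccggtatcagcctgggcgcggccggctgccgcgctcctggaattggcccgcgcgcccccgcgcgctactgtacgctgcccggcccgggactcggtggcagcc
Cdh5 upstream site, chr8:104085729-104085929: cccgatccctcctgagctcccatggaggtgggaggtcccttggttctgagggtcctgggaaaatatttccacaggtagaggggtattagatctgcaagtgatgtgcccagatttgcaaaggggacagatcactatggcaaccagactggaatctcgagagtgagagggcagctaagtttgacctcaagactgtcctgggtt
Cdh5 downstream site, chr8:104168443-104168643: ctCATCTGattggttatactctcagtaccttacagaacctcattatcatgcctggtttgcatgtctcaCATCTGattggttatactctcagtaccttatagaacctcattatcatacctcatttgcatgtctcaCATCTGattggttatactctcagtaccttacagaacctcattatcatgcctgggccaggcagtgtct
Tek intron, chr4:94752545-94752745: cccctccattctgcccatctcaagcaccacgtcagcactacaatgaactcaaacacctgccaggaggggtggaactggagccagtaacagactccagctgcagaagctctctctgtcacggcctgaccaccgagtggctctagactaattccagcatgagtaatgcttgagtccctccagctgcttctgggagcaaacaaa
No match to the 5 strings lay in 4 of these windows. The *Cdh5* downstream site held 3 E-box strings spaced 66 bp apart, in a tandem repeat that is soft-masked over 100% of the window. The 51 bases around its summit occur 3 times in the assembly, while those of the other 4 sites occur 1 time each. Of these 3 copies only 1, the site itself, lies within 1000 bp of the summit, so they are not the 3 spaced strings.

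A promoter window ran from 1000 bp upstream to 100 bp downstream of a curated RefSeq transcription start, and the 9 genes have 14 such windows. In 2 of the 14 windows every one of the 7 libraries reached q at most 0.01, and in 5 of them none did. Over the windows of all coding genes, 49.7% reached it in all 7 libraries and 29.9% in none. The libraries had a peak in 3 (GFP+ replicate 3), 5 (GFP+ replicate 4), 4 (Tomato+ replicate 6), 5 (Tomato+ replicate 8), 5 (GFP- replicate 1), 6 (GFP- replicate 2) and 8 (Tomato- replicate 7) of the 14 windows. Tomato- replicate 7, with the most windows, was also the deepest library, and the part of depth in these counts was not tested. In cells sorted in bulk, a smaller share of cells with an open site and less opening per cell cannot be told apart.

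**Figure D1:**
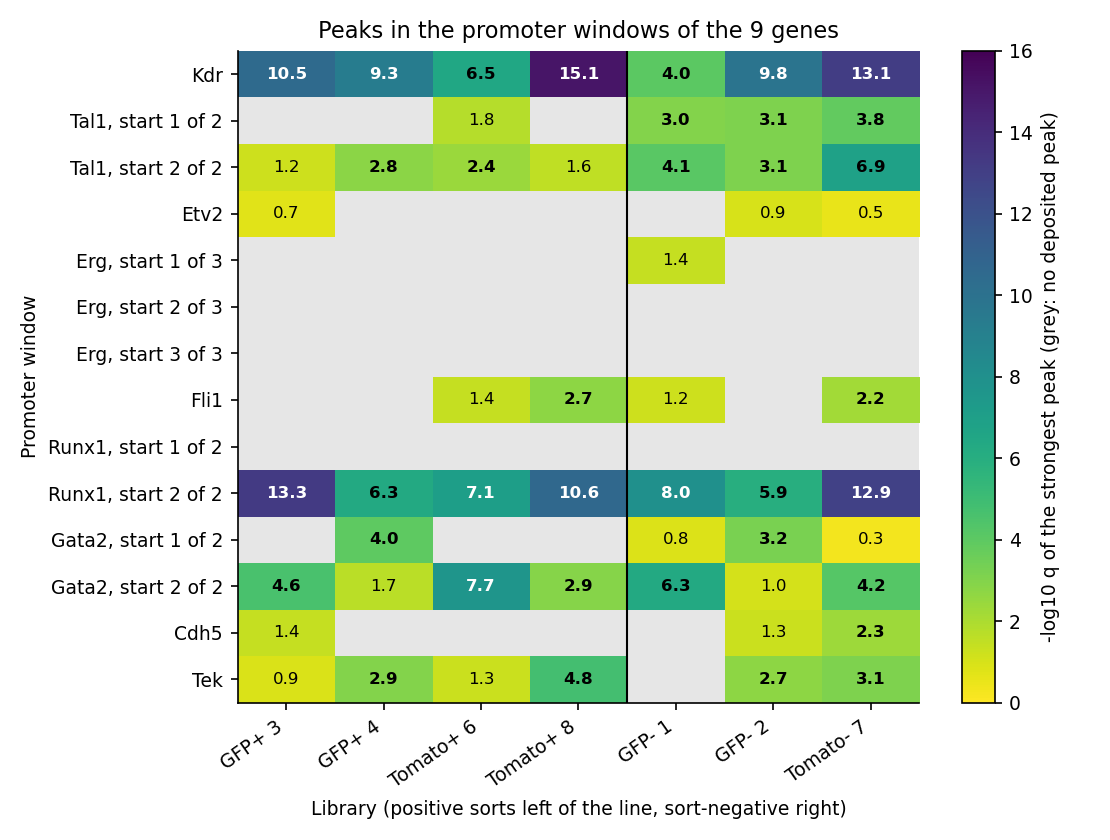
Strongest deposited peak in each of the 14 promoter windows of the 9 genes, as -log10 q, in each of the 7 libraries, with starts of a gene numbered from 5′ to 3′ and values of at least 2 in bold. *Kdr* and the proximal start of *Runx1* have a value of 4.04 or more in every library, and both *Tal1* windows have their 3 highest values in the sort-negative libraries.

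*Kdr* (chr5:75932827-75979072, minus strand) had the promoter with the highest median -log10 q of the 9 genes, 9.83 over the 7 libraries. Its -log10 q, which measures the evidence for a peak within a library, was 10.5 and 9.30 in GFP+, 6.48 and 15.1 in Tomato+, 4.04 and 9.83 in GFP- and 13.1 in Tomato- libraries. The fold enrichment is the pileup of tags over the local background, with a constant added to both. It was 6.01 and 5.20 in GFP+, 4.52 and 7.46 in Tomato+, 3.77 and 5.85 in GFP- and 5.86 in Tomato- libraries. The groups overlapped, with the highest value in a Tomato+ and the lowest in a GFP- library. The log2 fold enrichment differed between positive and sort-negative libraries by 0.10 (SE 0.22, limma, adjusted p = 0.994).

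Of its 11 regions, 10 were distal to the promoter of *Kdr*, and none of these had a deposited peak in all 7 libraries. By median -log10 q the highest lay in an intron, 0.654 kb downstream of the start, with values of at most 3.64. Single libraries had higher distal peaks, with a -log10 q of 5.23 in Tomato+ replicate 6 in a region beyond the 3′ end and 7.14 in GFP- replicate 2 in an intron, both chosen after their values were seen. A region 16.1 kb downstream of the start had peaks in 4 libraries, of which Tomato- replicate 7 was highest with a -log10 q of 3.96. A region over an exon 36.6 kb downstream of the start had fold enrichments of 3.39 and 3.96 in the Tomato+ libraries, 2.43 in GFP+ replicate 4 and 3.75 in GFP- replicate 1, and no deposited peak in the other 3 libraries.

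*Runx1* (chr16:92601466-92826074, minus strand) is read from a distal and a proximal promoter, and only the proximal start had peaks. There the -log10 q was 13.3 and 6.31 in GFP+, 7.06 and 10.6 in Tomato+, 7.97 and 5.95 in GFP- and 12.9 in Tomato- libraries, with overlap of all groups. A second region 1.28 kb upstream of this start had values from 6.54 to 15.1 in all 7 libraries, the highest in GFP- replicate 2. The window of the distal start had no deposited peak in any library. The fitted positive minus sort-negative difference in log2 fold enrichment was 0.06 (SE 0.19, limma, adjusted p = 0.995) at the proximal start and 0.13 (SE 0.18, adjusted p = 0.989) at the upstream region.

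The strongest distal region of *Runx1* lay in an intron, 90.9 kb downstream of the nearest start, with fold enrichments of 4.39 and 3.37 in GFP+, 5.002 and 4.57 in Tomato+, 4.87 and 3.94 in GFP- and 3.91 in Tomato- libraries. The groups overlapped there too. Near the distal start, regions 2.11 kb upstream and 3.45 kb downstream each had deposited peaks in 4 libraries, with -log10 q of at most 2.67 and 3.86.

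*Tal1* (chr4:115056426-115071755, plus strand) encodes a basic helix-loop-helix factor without which no blood forms. Its peaks were higher in the sort-negative libraries within both promoter windows, but not in the stretch between the windows. In the window of its first start, -log10 q was 2.96 and 3.12 in GFP- and 3.84 in Tomato- libraries. In Tomato+ replicate 6 it was 1.79, and the other 3 positive libraries had no deposited peak there. In the window of the second start, the values were 4.08 and 3.12 in GFP- and 6.86 in Tomato- libraries, against 1.25 and 2.76 in GFP+ and 2.38 and 1.55 in Tomato+ libraries. Both windows separated the 3 sort-negative from the 4 positive libraries by fold enrichment and by -log10 q.

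Of the 14 windows, 10 had a deposited peak in at least 3 libraries, and the positions in the lists ranked by fold enrichment were higher in all sort-negative libraries in 2 of them and higher in all positive libraries in 0. Over all coding windows with peaks in at least 3 libraries, 2.49% were higher in sort-negative and 2.56% in positive libraries. The 2 windows belong to 1 gene, and in GFP- replicate 2 the same peak lies in both. With windows of 500 bp on either side of a start, 0 windows of the 9 genes separated the libraries. The merged region at the first start had a peak in all 7 libraries. Its fold enrichments were 2.62 and 2.42 in GFP+, 2.82 and 3.84 in Tomato+, 3.21 and 3.28 in GFP- and 3.88 in Tomato- libraries. The 3.84 of Tomato+ replicate 8 came from a peak in neither window, with its summit at chr4:115056587 and a -log10 q of 4.92. Both GFP- libraries were below that, at 2.96 and 3.12. The fitted difference of the region was -0.33 (SE 0.18, limma, adjusted p = 0.918).

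The strongest distal region of *Tal1* lay 38.1 kb downstream of its nearest start, between genes. Its -log10 q was 6.88 and 3.90 in GFP+, 5.77 and 12.0 in Tomato+, 7.45 and 7.71 in GFP- and 24.0 in Tomato- libraries. The Tomato- library stood highest, and it is also the deepest, a property on which -log10 q depends. By fold enrichment it was highest as well, at 6.75 against 3.45 to 5.77 in the other libraries. The part of depth in either measure was not tested. A region over an exon 5.55 kb downstream of a start and another 3.64 kb upstream also reached q at most 0.01 in all 7 libraries.

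*Gata2* (chr6:88193891-88207032, plus strand), the zinc finger factor of early blood progenitors, had a peak in all 7 libraries at its second start, with -log10 q of 4.61 and 1.66 in GFP+, 7.67 and 2.93 in Tomato+, 6.26 and 1.01 in GFP- and 4.20 in Tomato- libraries. All groups overlapped. The first start reached q at most 0.01 only in GFP+ replicate 4 and GFP- replicate 2. The strongest distal region lay 4.08 kb upstream, with fold enrichments of 2.66 and 3.44 in GFP+, 4.51 and 4.83 in Tomato+, 4.64 and 2.74 in GFP- and 3.81 in Tomato- libraries. GFP+ minus Tomato+ was -0.63 there on the log2 scale (SE 0.28, limma, adjusted p = 0.573), and of the 2 GFP- libraries 1 fell in the range of each sort. The GFP+ and Tomato+ sorts come from different lines, so sort and line cannot be told apart in this contrast. A region 37.5 kb downstream had peaks in 6 libraries, with -log10 q of at most 7.95, and another 44.1 kb downstream had peaks in all 7, from 1.48 in Tomato+ replicate 8 to 6.09 in Tomato+ replicate 6. Positive and sort-negative libraries overlapped at each.

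The 3 ETS factor genes had few or weak peaks in their promoter windows. *Etv2* (chr7:30633616-30636509, minus strand) had none with q at most 0.01, and its highest -log10 q was 0.942, in GFP- replicate 2. *Erg* (chr16:95359169-95586600, minus strand) had no deposited peak at 2 of its 3 starts, and at the other a peak with a -log10 q of 1.40 in GFP- replicate 1 alone. *Fli1* (chr9:32422204-32543432, minus strand) reached q at most 0.01 in Tomato+ replicate 8, at 2.72, and in Tomato- replicate 7, at 2.19.

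At each of these 3 genes a region just inside the gene had a deposited peak in all 7 libraries. In *Erg*, 0.972 kb downstream of the outermost start, -log10 q was 7.24 and 2.51 in GFP+, 3.86 and 6.59 in Tomato+, 2.46 and 5.46 in GFP- and 6.33 in Tomato- libraries. In *Fli1*, 0.517 kb downstream, it was 5.45 and 3.07 in GFP+, 2.54 and 3.94 in Tomato+, 2.41 and 2.97 in GFP- and 3.69 in Tomato- libraries. In *Etv2*, over an exon 0.975 kb downstream, it was 1.88 and 6.69 in GFP+, 10.7 and 5.27 in Tomato+, 4.58 and 8.66 in GFP- and 7.71 in Tomato- libraries. Positive and sort-negative libraries overlapped at all 3. The window of *Etv2* is short and crowded, with 6 other coding genes, and 5 of its 22 regions are promoters of those genes. Its strongest distal region, between genes 35.7 kb downstream of the start, had -log10 q of 11.5 and 22.0 in GFP+, 8.29 and 19.03 in Tomato+, 15.6 and 5.70 in GFP- and 18.98 in Tomato- libraries. Another over an exon of *Rbm42*, 9.03 kb upstream, had peaks in 6 libraries with -log10 q of at most 2.37.

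Both *Erg* and *Fli1* also had regions far from their starts. Beyond the 3′ end of *Erg*, 118 kb from the nearest start, all 7 libraries had a peak, with -log10 q from 1.83 in GFP+ replicate 4 to 4.79 in Tomato+ replicate 6. A region 109 kb from that start had peaks in 5 libraries. Beyond the 3′ end of *Fli1*, 132 kb from its start, all 7 libraries had a peak, with -log10 q from 1.53 in Tomato- replicate 7 to 6.05 in GFP+ replicate 4. A region 50.4 kb upstream of *Fli1* had peaks in 6 libraries, with 9.76 in Tomato- replicate 7 and at most 4.48 in the others.

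*Erg* was the locus that held more peaks in the positive sorts. It had 12 and 11 peaks with q at most 0.01 in GFP+, 8 and 15 in Tomato+, 6 and 4 in GFP- and 7 in Tomato- libraries. Every positive library was above every sort-negative library, by 1 peak at the nearest. The other 8 loci overlapped, so 1 of 9 loci was higher in positive libraries, where 0.943% of the 21000 coding loci were. That share covers loci of all sizes, and the *Erg* window was the widest of the 9, at 327 kb. The peaks behind the count were weak and differed between libraries, since 38 of the 44 regions at *Erg* had q at most 0.01 in 1 library alone. With q at most 0.0001 the counts were 4, 0, 4 and 3 in positive and 2, 1 and 2 in sort-negative libraries, which overlap.

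Peaks in repeated sequence added to the *Erg* count. Without peaks whose 201 bases around the summit were over 50% soft-masked, a step chosen after seeing the data, the counts were 9, 9, 7 and 14 in positive and 5, 3 and 7 in sort-negative libraries, which touch. A region of 80 bp in an intron, chr16:95510306-95510385, 20.02 kb downstream of the nearest start, had q at most 0.01 in all 4 positive libraries and no deposited peak in any sort-negative library. The GFP+ libraries had fold enrichments of 3.31 and 3.50 there, and the Tomato+ libraries of 4.60 and 4.81. It was the single region of the 9 loci with this pattern, which 30 of 210347 regions showed. The 51 bases at its summit occur 702 times in the assembly, and of these copies 48 are covered at q at most 0.01 in some library and 14 in all 7. Non-primary alignments were removed by the authors, and whether the primary placement of a read that matches several copies equally well was kept is not given in the sources used here. Of the 30 regions, 11 were over 50% masked (36.7%), against 51.1% of the 47 regions with the reverse pattern, none of them in the 9 loci, and 20.9% of all regions.

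**Figure D2:**
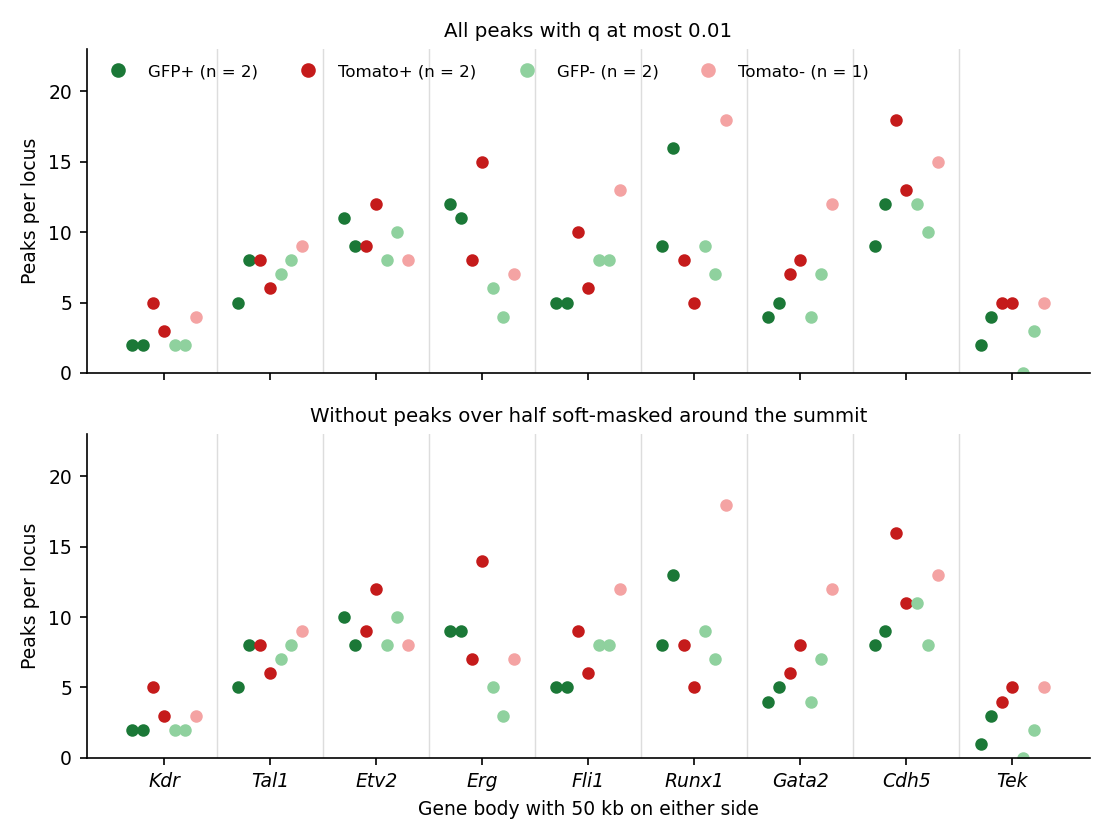
Peaks with q at most 0.01 within 50 kb of each gene body, 1 point per library, with all peaks (top) and without peaks over 50% soft-masked around the summit (bottom). At *Erg* the positive libraries lie at 8 to 15 and the sort-negative at 4 to 7 in the top panel, and both groups hold a library at 7 in the bottom panel.

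In all, the 9 loci held 59 and 72 peaks with q at most 0.01 in GFP+, 78 and 73 in Tomato+, 56 and 59 in GFP- and 91 in Tomato- libraries. The sums of the positive libraries lay between the GFP- and Tomato- sums, except GFP+ replicate 3, which equalled GFP- replicate 2. Of the 246 regions, 28 had a deposited peak in all 7 libraries (11.4%, against 16.2% of all regions) and 93 in 1 library (37.8%, against 35.4%). By class, 13 overlapped a promoter window of the 9 genes, 8 that of a neighbouring gene and 225 were distal.

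*Tek* had the distal region with the largest fitted excess in the positive sorts. The intron region chr4:94752365-94752876, 13.3 kb downstream of the start and printed above, had fold enrichments of 4.22 and 7.01 in GFP+, 5.25 and 3.17 in Tomato+, 2.77 and 2.99 in GFP- and 2.74 in Tomato- libraries. Every positive library was above every sort-negative library, with GFP+ replicate 4 highest and Tomato+ replicate 8 close to GFP- replicate 2. The -log10 q was 4.04, 14.2, 6.56 and 2.02 in positive and 1.26, 1.57 and 1.59 in sort-negative libraries, so q at most 0.01 was reached in the positive libraries alone. The positive minus sort-negative difference was 0.72 on the log2 scale (SE 0.24, limma, adjusted p = 0.886), and did not pass the threshold of 0.1. GFP+ minus GFP- was 0.85 (SE 0.31, limma, adjusted p = 0.747).

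A weaker *Tek* intron region, 26.1 kb downstream of the start, had fold enrichments of 2.71 and 2.50 in GFP+ and 3.94 and 3.11 in Tomato+ libraries and no deposited peak in the sort-negative libraries. Only Tomato+ replicate 6 reached q at most 0.01 there. Another, 7.29 kb downstream, had peaks in both Tomato+ libraries and in GFP- replicate 2 and Tomato- replicate 7, with the highest fold enrichment, 3.94, in Tomato+ replicate 6. By -log10 q, Tomato- replicate 7 was highest there, at 5.48. At the promoter of *Tek* (chr4:94739086-94874976, plus strand), -log10 q was 0.935 and 2.94 in GFP+, 1.26 and 4.78 in Tomato+ and 2.75 and 3.08 in GFP- replicate 2 and Tomato- libraries, with no deposited peak in GFP- replicate 1.

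*Cdh5* (chr8:104101613-104144504, plus strand) reached q at most 0.01 at its promoter in Tomato- replicate 7 alone, with a -log10 q of 2.33. Its locus, gene body and flanks together, held 40 regions, of which 5 had a deposited peak in all 7 libraries. The region chr8:104085681-104085884, 15.8 kb upstream of the start, was low in the GFP+ libraries, with fold enrichments of 2.71 and 2.50. It was at 4.93 and 5.38 in Tomato+, 4.28 and 6.24 in GFP- and 4.96 in Tomato- libraries. The -log10 q was 0.935 and 0.835 in GFP+ libraries and between 4.96 and 10.6 in the other 5, so the GFP+ libraries did not overlap any other.

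GFP+ minus GFP- at this upstream region was -1.05 on the log2 scale (SE 0.23, limma, adjusted p = 0.698). GFP+ minus Tomato+ was -0.98 (SE 0.23, limma, adjusted p = 0.389), and Tomato+ minus Tomato- was 0.07 (SE 0.29, adjusted p = 0.999). The difference between the contrasts of both lines was -1.12 (SE 0.37, limma, adjusted p = 0.999). None passed the threshold.

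The strongest distal region of all 9 loci by median -log10 q, 18.5, was the *Cdh5* downstream site, 66.9 kb from the start and between *Cdh5* and *Bean1*. Its fold enrichments were 5.89 and 3.05 in GFP+, 7.46 and 7.31 in Tomato+, 6.95 and 7.02 in GFP- and 7.67 in Tomato- libraries. Here too both GFP+ libraries were below the other 5, most of all replicate 4. GFP+ minus GFP- was -0.79 (SE 0.28, limma, adjusted p = 0.741). This is the tandem repeat printed above. As for the *Erg* repeat, whether reads that match several copies equally well were kept is not given. A region 3.11 kb upstream of the start had a peak in 5 libraries, with -log10 q from 3.02 to 6.94 and none in Tomato+ replicate 6 and GFP- replicate 1. The region after the downstream site, over the promoter side of *Bean1*, went the other way. GFP+ minus GFP- was 0.24 there (SE 0.23, limma, adjusted p = 0.915), and GFP+ minus Tomato+ was 0.62 (SE 0.23, limma, adjusted p = 0.516).

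**Figure D3:**
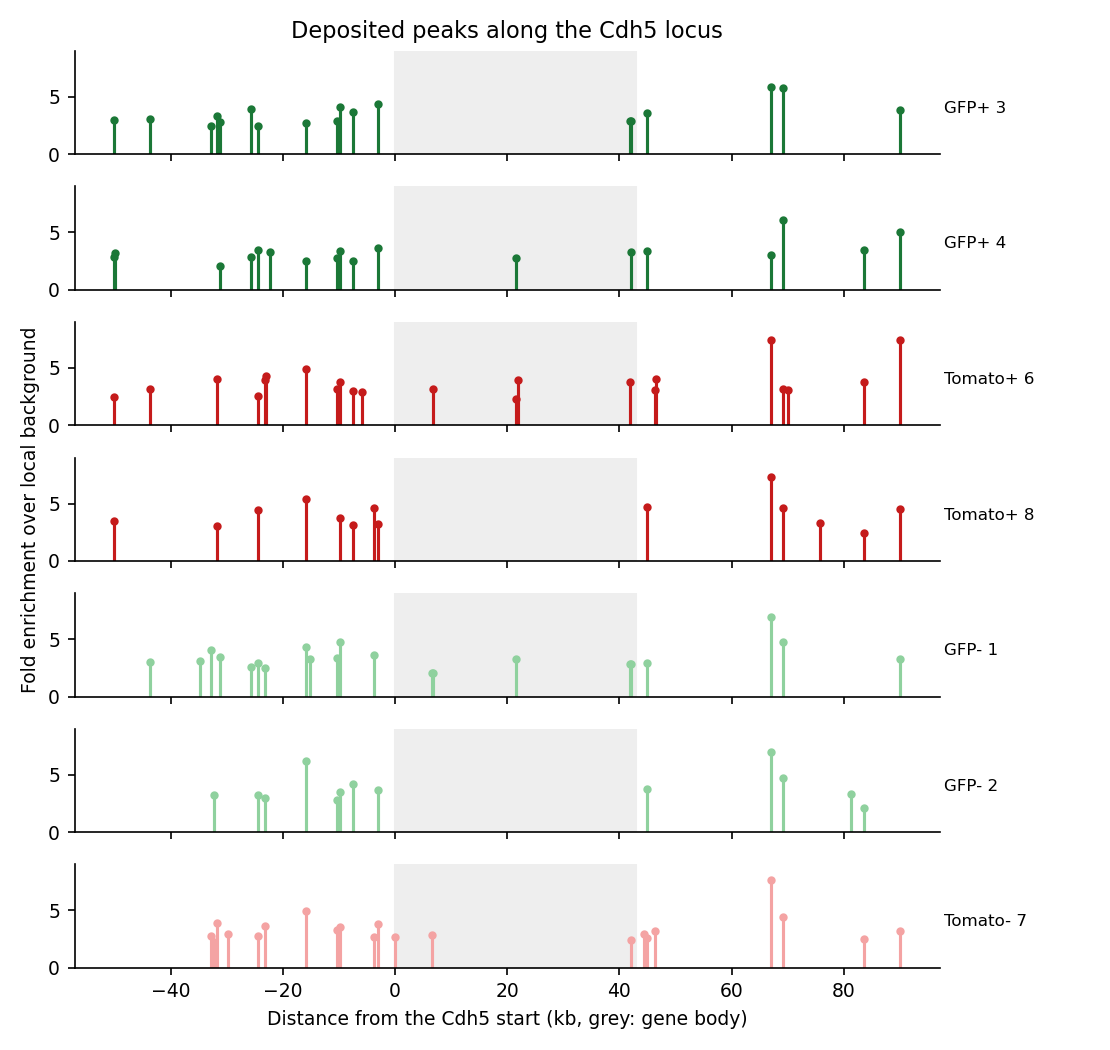
Fold enrichment of each deposited peak in a region of the *Cdh5* locus, by distance from the start in kb, with 1 panel per library and the gene body in grey. The peak 15.8 kb upstream is at 2.71 and 2.50 in the GFP+ panels and at 4.28 to 6.24 in the other 5, and the start itself has a peak in a region of the Tomato- panel alone.

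That both libraries of a sort lie below or above the other 5 is not rare among regions with a deposited peak in at least 3 libraries, of which the 9 loci held 103 and the genome 95309. This comparison was chosen after the *Cdh5* values were seen. Both GFP+ libraries were lower than the other 5 at 4 regions of the 9 loci, where 3.55% of all regions were, and higher at 3, where 5.65% were. The 4 lower regions were the 2 *Cdh5* sites and 2 at the *Tal1* promoters. Both Tomato+ libraries were lower at 1 region, a promoter near *Etv2*, where 3.71% of all regions were, and higher at 3, where 4.61% were. As shares of the 103 regions, these were 3.88% and 2.91% for GFP+ and 0.971% and 2.91% for Tomato+ libraries.

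The 4 positive libraries were all higher than the 3 sort-negative libraries at 5 of the 103 regions, where 2.04% of all regions were. They were all lower at 1, where 3.16% were. The 5 were the *Erg* repeat, both *Tek* introns and 2 regions at the edges of the *Cdh5* window. Of these, the region in an intron of *Bean1*, 90.0 kb downstream of the *Cdh5* start, had fold enrichments of 3.87 and 5.004 in GFP+, 7.40 and 4.53 in Tomato+, 3.27 in GFP- replicate 1 and 3.24 in Tomato- libraries, with no deposited peak in GFP- replicate 2. The region 50.1 kb upstream of *Cdh5* had q at most 0.01 in Tomato+ replicate 8 alone. Positions are ranks in lists of unequal length, and the shares over all regions depend on this. By percent of the list, 2770 of the 95309 regions were higher in positive and 2074 in sort-negative libraries, against 1948 and 3008 by position. In the 9 loci the counts by percent of the list were 5 and 0.

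The region that was higher in sort-negative libraries lay 48.5 kb upstream of *Fli1*. Its fold enrichments were 2.88 and 3.34 in GFP- and 3.84 in Tomato- libraries. In the positive libraries it had peaks only in GFP+ replicate 3, at 2.72, and in Tomato+ replicate 8, at 2.92. The latter value was above that of GFP- replicate 1, and the order reversed only by position in the list, in which each library's peaks were ranked among its own.

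**Figure D4:**
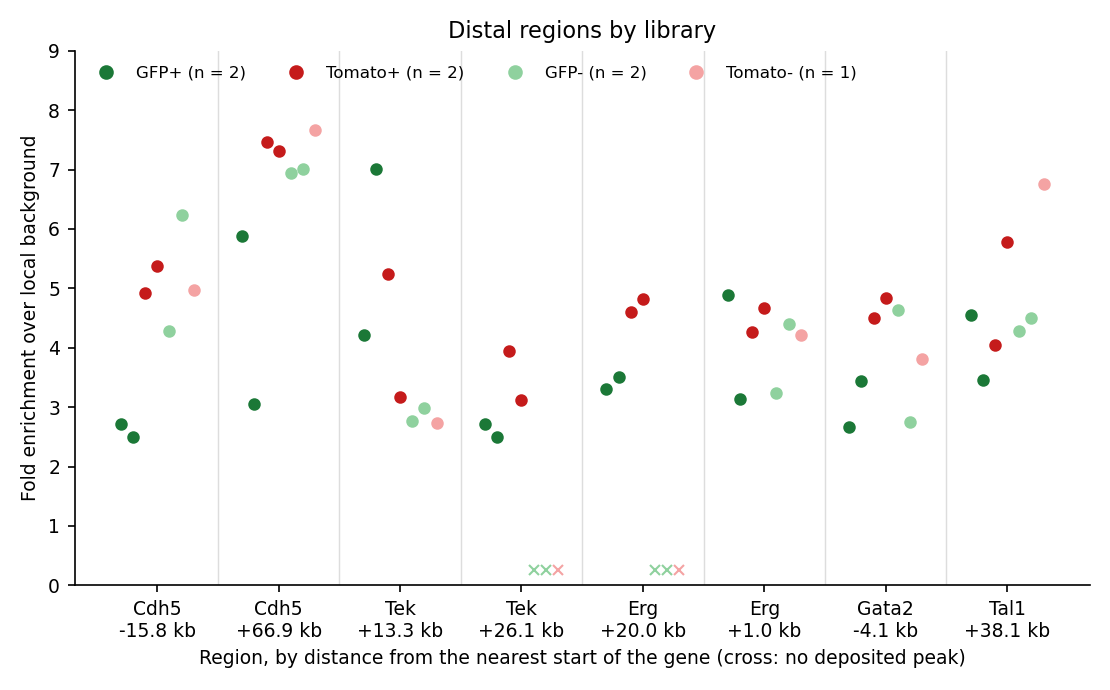
Fold enrichment over local background at 8 distal regions, by library, with crosses for libraries without a deposited peak. GFP+ values are the lowest at both *Cdh5* regions, and sort-negative values are the lowest, or have no peak, at both *Tek* regions and at the *Erg* region 20.02 kb from a start.

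In limma on median-centred log2 fold enrichment, 34032 regions with a deposited peak in all 7 libraries were tested, of which 28 lay in the 9 loci. The contrast named the difference between the lines is GFP+ minus GFP- less Tomato+ minus Tomato-. It compares the sort contrasts of the lines and not the lines themselves. With an adjusted p of at most 0.1, 0 regions were called in the 9 loci and 0 in the genome (0%) for positive against sort-negative, GFP+ against GFP-, Tomato+ against Tomato-, GFP+ against Tomato+ and the difference between the lines. At an unadjusted p under 0.05, 2 of the 28 regions were found for positive against sort-negative libraries, 1 in each direction, which is 7.14% against 5.54% of all tested regions. The counts were 3 for GFP+ against GFP- (10.7%, against 6.33% of all), 0 for Tomato+ against Tomato- (against 4.22%), 4 for GFP+ against Tomato+ (14.3%, against 8.45%) and 2 for the difference between the lines (7.14%, against 4.57%).

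The positive minus sort-negative difference had a median of 0.02 over the 28 and -0.02 over all tested regions, and ran from -0.51 to 0.72. Between GFP+ and Tomato+ libraries, sort and line cannot be told apart. The median of GFP+ minus Tomato+ was -0.21 over the 28, against -0.01 over all, with 8 of 28 above 0. It rested in part on single libraries, being -0.07 without Tomato+ replicate 6 and -0.09 without GFP+ replicate 4. The median difference between the sort contrasts of the lines was -0.20 over the 28, with 10 above 0, against -0.04 over all, and was -0.04 without Tomato+ replicate 6. The standard errors for positive against sort-negative ran from 0.17 to 0.24. The single Tomato- library was assumed in the fit to vary like the other groups.

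**Figure D5:**
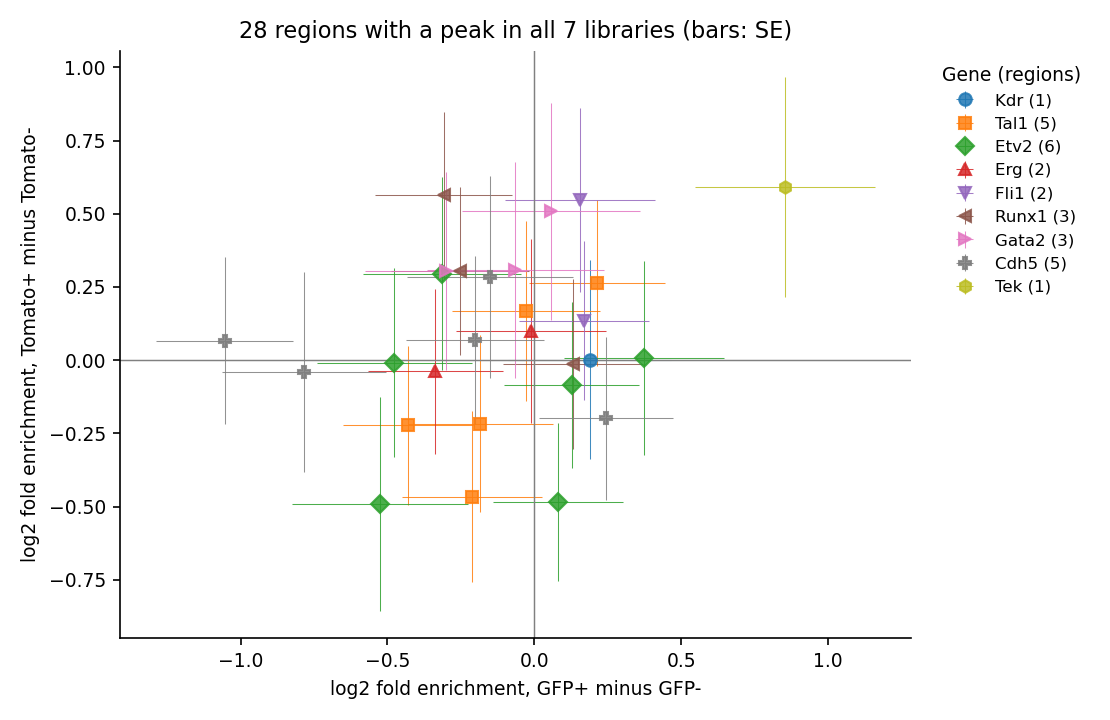
Fitted log2 differences in fold enrichment at the 28 regions, GFP+ minus GFP- (horizontal) against Tomato+ minus Tomato- (vertical), with standard errors. Points scatter around 0, with the *Tek* intron at 0.85 and 0.59 and the *Cdh5* upstream region at -1.05 and 0.07.

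The wider endothelial and blood programme was as mixed. Of 38 other genes of this kind, 8 reached q at most 0.01 at a promoter in all 7 libraries and 13 in none, where 53.1% of all coding genes did so in all 7 and 28.3% in none. The libraries had such a peak at 18 and 19 of the 38 genes in GFP+, 15 and 17 in Tomato+, 19 and 13 in GFP- and 20 in Tomato- libraries. Among 18 genes whose promoter region could be fitted, 0 were called by limma, and 1 had an unadjusted p under 0.05, as had 5.54% of all tested regions. The largest positive minus sort-negative differences were at *Nfe2* (0.37), *Clec14a* (0.26), *Flt1* (0.19) and *Elk3* (0.16), and the lowest at *Lmo2* (-0.20), *Hhex* (-0.20), *Nfatc1* (-0.18) and *Sox7* (-0.18). The median over the 18 was 0.07.

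Of the marker lists, 4 of 10 second heart field genes reached q at most 0.01 at a promoter in all 7 libraries and 0 in none, to be read against the same 53.1% and 28.3% of all coding genes. For 4 blood markers these counts were 0 and 3, and for 5 endothelial markers 1 and 1. Both lists repeat genes already counted. The 4 blood markers, *Pecam1* and *Cldn5* are among the 38 other genes, and *Kdr*, *Cdh5* and *Tek* are among the 9. The endothelial marker with a peak in all 7 libraries was *Kdr*. Neural genes had it in all libraries at 3 of 4. Neural crest and endoderm genes had it in all libraries at 0 of 3 each, with no gene lacking it everywhere.

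The strings of the factors themselves were present near the 9 genes at about the share over all regions or at a lower share. Within 100 bp of the summit of the 103 regions, the ETS string was present in 19.4%, against 19.3% of all 95309 regions with a peak in at least 3 libraries. The share with the FOX:ETS string, which marks many endothelial enhancers and can overlap the ETS string, was 1.94% against 2.34%. The GATA string was in 1.94% against 5.46%, the TAL1 E-box in 15.5% against 15.3% and the RUNX string in 8.74% against 13.3%. The FOX:ETS and GATA shares rest on 2 regions each. Over all 246 regions of the 9 loci, FOX:ETS was in 2.85% against 2.61% of all regions, and GATA in 4.07% against 6.60%. Repeated sequence was less common at the summits of the 9 loci, with 4.85% of the 103 regions over 50% soft-masked against 25.3% of all.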

How the data were processed

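ATAC-seq was done on 10000 sorted cells per library, in pools of embryos. Reads were mapped by the authors to GRCm38 with SNAP, and unmapped, non-primary, duplicate, improperly paired and blacklisted reads were dropped. The submitters' processing notes name bcl2fastq 2.17.1.14, SAMtools, MACS2 2.1.1, DiffBind and HOMER. The authors called peaks with MACS2 in each library. The deposited header of Tomato+ replicate 6 names release 2.1.0, no control, a p limit of 0.01, a shift of 37 bp and an extension of 73 bp, and its shift can displace summits. That header also carries a run name with YFP, which no line of the study is labelled with, so this library is placed by its label alone. The other lists have no header, and their settings were taken to be the same. The deposited pileup signal is not scaled to depth. The fold enrichment is a ratio that the authors deposited, of the pileup over the background around it. The deposited -log10 p-value and q-value are computed within a library and grow with depth.

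Tags were derived from the lowest background rate, 73 bp and an effective genome of 1870000000 bp. A region took, per library, the overlapping peak with the highest -log10 q. Positions are ranks in each library's list by fold enrichment. Differences were fitted with limma 3.58.1 (R 4.3.3) on 4 group means after median centring, with Benjamini-Hochberg adjustment and a threshold of 0.1. The script was tested on data simulated with the residual spread of each region. For positive against sort-negative libraries it called 0% of regions changed by 0.5 on the log2 scale. It called 42% of those changed by 1 and 94% of those changed by 2, so smaller differences could be missed. Nothing in the labels ties the libraries to separate litters, so p-values measure the spread between these libraries. Python 3.11.15, pandas 2.3.3 and pysam 0.24.0 were used with RefSeq GRCm38.p6. Named were all 9 genes with their promoters, the 3 distal regions of each gene with the highest median -log10 q, called regions and regions with q at most 0.01 in all libraries of 1 side and no deposited peak on the other, and for the other 38 genes the 4 highest and 4 lowest differences. Further regions whose groups did not overlap were named after their values were seen. Members and lists were chosen with earlier results of these data known. Alternatives were quantile normalisation, no line in the contrast, missing peaks at the lowest fold enrichment, other q, overlap, flank and window settings, and leaving out each library. Pileup over the genome background, peaks without repeats, promoter positions and single sorts against the rest were added after seeing the data.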

Additional observations from a re-analysis of the deposited data

How the results depend on the processing

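No paired analysis was possible because 1 running number goes through all libraries, so the numbers tie no positive library to a sort-negative one of the same pool. The limma counts in the 9 loci were 0 under every alternative that could be fitted. Without Tomato- replicate 7 no sort-negative value of its line remains, so the contrasts that use it were not fitted. Over the alternatives, calls elsewhere in the genome occurred for GFP+ against Tomato+ alone. Where leaving out a library leaves 1 in its group, that library was assumed to vary like the other groups. The lowest adjusted p in the 9 loci over the alternatives was 0.272 for positive against sort-negative, 0.131 for GFP+ against GFP-, 0.427 for Tomato+ against Tomato-, 0.308 for GFP+ against Tomato+ and 0.397 for the difference between the lines. Of the 15 fitted differences refitted under the alternatives, those at the named *Cdh5*, *Tek*, *Gata2* and *Tal1* regions and at the upstream *Runx1* region did not reverse. Positive minus sort-negative at the *Kdr* promoter ran from -0.074 (without Tomato+ replicate 8) to 0.27 and was -0.05 without GFP- replicate 1, and at the proximal *Runx1* start it ran from -0.075 (without GFP+ replicate 3) to 0.19. GFP+ minus GFP- ran from -1.28 to -0.78 at the *Cdh5* upstream region, with the lowest adjusted p at 0.318, and from -1.22 to -0.29 at the *Cdh5* downstream site. The *Tek* intron difference of positive minus sort-negative ran from 0.53 to 0.91. The 5 regions higher in positive libraries were 3 with a flank of 10 kb and 5 to 8 without 1 library, with 8 without Tomato+ replicate 8. The 1 region higher in sort-negative libraries was 0 by percent of the list and 0 with a flank of 10 kb, which holds fewer regions. It was 1 to 7 without 1 library, being 4 without GFP+ replicate 4, 7 without Tomato+ replicate 6, 3 without Tomato+ replicate 8, 3 without GFP- replicate 1, 5 without GFP- replicate 2 and 2 without Tomato- replicate 7. Over all 95309 regions the counts also rose without 1 library. Those higher in positive libraries went from 1948 to between 3443 and 5092. Those higher in sort-negative libraries went from 3008 to between 4365 and 7061. The 1 locus with non-overlapping peak counts, *Erg*, was 0 with q at most 0.0001, 0 with all deposited peaks, 0 with the 30000 peaks of the smallest p and 0 without masked peaks. Without 1 library the number of such loci was 1 to 2, with 2 without Tomato+ replicate 6 and 2 without GFP- replicate 2. The 2 *Tal1* windows were 0 with windows of 500 bp on either side, by fold enrichment and by -log10 q. The cause of these changes was not tested. The 2 promoter windows with a peak in all libraries were 2 under each alternative run. Tomato+ replicate 6 was the library with the fewest tags, and the part of depth in its -log10 q values was not tested.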
